A study of Rattus norvegicus with 6 samples.

Results

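The ADAMTS proteases are secreted zinc metalloproteases that cut proteoglycans and other proteins of the extracellular matrix. The 10 genes described here are Adamts1, Adamts4, Adamts5, Adamts6, Adamts7, Adamts8, Adamts9, Adamts10, Adamts12 and Adamts15, taken by their symbols from the 21857 symbols in the count files, and all 10 passed the filter on low counts that left 12941 genes. RNA-seq was done on neonatal rat cardiac fibroblasts (NRCFs), a primary culture from hearts of rats up to 3 days old. The design text and the methods name Sprague-Dawley rats, whereas the strain label reads Noway. There were 3 libraries from cells given an empty pcDNA plasmid (Vector group, genotype label WT) and 3 from cells given the same plasmid carrying rat FTO, a demethylase that removes N6-methyladenosine from RNA (genotype label FTO overexpression). Transfection was transient, and all cells were plated from digested hearts after differential adhesion. Neither the labels nor the methods say whether the 3 libraries of a group came from separate animals or cultures, so p-values measure only the spread between these libraries.

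ADAMTS enzymes carry a metalloprotease domain with a zinc-binding site and thrombospondin type 1 repeats that anchor them in the matrix. They are made as inactive precursors, which furin-like convertases cut, and TIMP3 is the tissue inhibitor best known to block several of them. In the heart, versican is cleared by such proteases while valves and trabeculae form, and fibroblasts are a source of both the enzymes and their substrates.

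Total counts were 13178952 to 17857999 per library, and a floor of 3 counts was worth 0.168 to 0.227 CPM (counts in 1000000 counts of the library, after TMM scaling). Fto itself averaged 88.3 ± 1.20 CPM in Vector and 92.3 ± 1.32 CPM in the libraries labelled FTO (SD, n = 3 each), a log2 fold change (log2FC) of 0.06 and a fold of 0.976 to 1.12 (95% confidence interval) by the quasi-likelihood test of edgeR (adjusted p = 0.239). Fto lay slightly higher in each library labelled FTO, but no rise passed the test, and directions below are those of the libraries labelled FTO against Vector. The paper reports that transfection with the FTO plasmid was checked by qRT-PCR and that N6-methyladenosine fell in a dot blot. It does not say whether these checks used the cells that were sequenced. Adjusted p-values are from this edgeR test unless another tool is named. All 7 fibroblast markers listed were tested, 4 rose and 3 fell. Their summed level was 14351 to 14455 CPM in Vector and 11825 to 12149 CPM in the libraries labelled FTO. Within this sum Col3a1 fell from 10700 to 3338 CPM on average and Dcn rose from 47.0 to 5611 CPM. Markers of other cells also moved between the groups, in a comparison where 65.9% of all genes tested passed an adjusted p of 0.05. Of 9 macrophage markers, 8 fell and 1 rose, with sums of 593 to 617 CPM against 146 to 165 CPM, and C1qb and C1qc did not exceed 3 counts in any library labelled FTO. Of 7 cardiomyocyte markers, 6 rose and 1 fell, with sums of 1299.9 to 1329 CPM against 1973 to 2023 CPM. Of 6 mural cell markers, 2 rose and 3 fell, with sums of 636 to 661 CPM against 230 to 274 CPM. On average Myh11 fell from 315 to 27.1 CPM, Notch3 from 226 to 14.9 CPM and Cspg4 from 80.2 to 30.1 CPM. The 2 that rose were Kcnj8, from 2.06 to 60.9 CPM, and Abcc9, from 20.9 to 114 CPM. Of 7 endothelial markers 4 rose, with sums of 24.5 to 25.0 CPM against 53.4 to 55.9 CPM, and Emcn was at 0 in every Vector library. Of 5 epicardial markers, 3 rose and 1 fell, with sums of 28.5 to 29.2 CPM against 117 to 133 CPM. Most of that rise was Msln, which averaged 2.83 CPM in Vector and 87.15 CPM in the libraries labelled FTO. Wt1 averaged 18.5 and 26.4 CPM. The part of these cells in the results below was not tested. In such bulk RNA, fewer cells of a type and less RNA per cell cannot be told apart.

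The 10 protease genes did not move as a block. Adamts15, Adamts9, Adamts4, Adamts7 and Adamts5 rose in the libraries labelled FTO, Adamts12, Adamts6, Adamts1 and Adamts10 fell, and Adamts8 did not pass the test. The count of 9 genes past an edgeR adjusted p of 0.05, 5 higher and 4 lower, stands beside a background in which 65.9% of all genes tested passed, 33.2% higher and 32.8% lower. At the threshold used by the study, a log2 fold change of at least 1 in either direction with an unadjusted p-value under 0.05, 4 of the 10 passed, against 19.6% of all genes. Vector and FTO libraries were fully apart in CPM for 9 of the 10, against 70.3% of all genes. The median absolute log2 fold change was 0.88 over the 10 genes and 0.36 over all genes tested. The 10 genes were chosen with earlier results of these data known, so these comparisons are description, not a test.

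**Figure D1:**
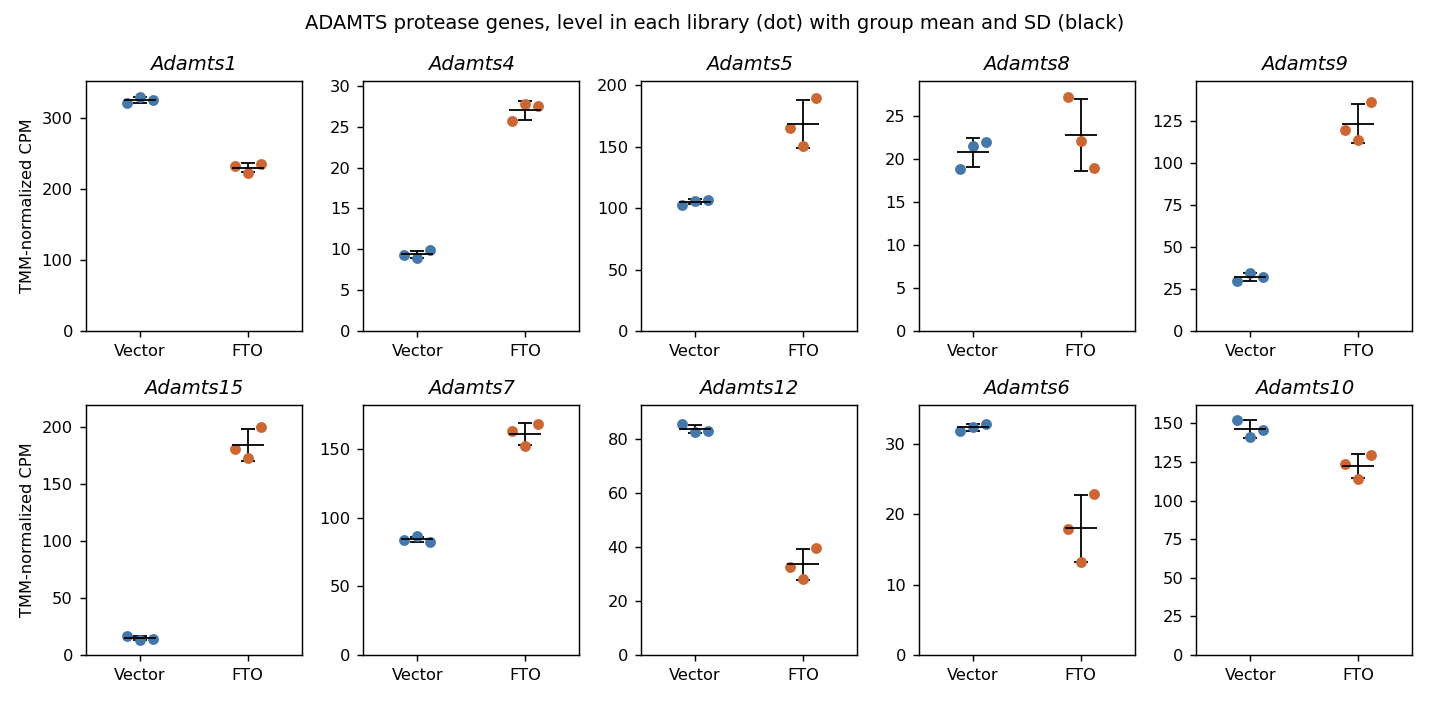
Level of each of the 10 ADAMTS protease genes in TMM-normalized CPM (vertical axes from 0, a scale of its own for each gene) in the 3 Vector libraries (blue) and the 3 libraries labelled FTO (orange), with the group mean and SD in black. The groups are apart for 9 genes and overlap for Adamts8, where the libraries labelled FTO run from 19.0 to 27.2 CPM.

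The summed level of the 10 genes was 853 to 857 CPM in the 3 Vector libraries and 1018 to 1167 CPM in the libraries labelled FTO. The means were 855 ± 1.92 and 1092 ± 74.8 CPM (SD, n = 3 each), a ratio of 1.28. The exact permutation test (two-sided) gave p = 0.10, the smallest value that 3 libraries against 3 allow. A sum of CPM weights long transcripts more, and no transcript lengths were used, so levels are not ranked between genes here. Within this sum the make-up changed. Adamts1 held 38.1% ± 0.433 of it in Vector and 21.2% ± 0.913 in the libraries labelled FTO, whereas Adamts15 held 1.71% ± 0.213 and 16.9% ± 0.291 (SD, n = 3 each). Adamts9 went from 3.77% ± 0.263 to 11.3% ± 0.350 of the sum and Adamts12 from 9.78% ± 0.202 to 3.06% ± 0.321 (SD, n = 3 each).

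The start regions of members that moved in opposite directions are shown for reference. RefSeq (assembly GRCr8) gave a promoter window for 7 of the 10 genes. The 250 bases before the annotated start are printed for Adamts9 and Adamts4, the genes with the largest rises among these 7, for Adamts12, which fell most among the 7, and for Adamts1, which also fell and whose window held a motif match. They lie at chr4:127019877-127020126 (minus strand) for Adamts9, at chr13:86202761-86203010 (plus strand) for Adamts4, at chr2:61759737-61759986 (plus strand) for Adamts12 and at chr11:38427385-38427634 (minus strand) for Adamts1. Each runs 5′ to 3′ towards the gene, and capitals mark any match to the motifs searched.
Adamts9: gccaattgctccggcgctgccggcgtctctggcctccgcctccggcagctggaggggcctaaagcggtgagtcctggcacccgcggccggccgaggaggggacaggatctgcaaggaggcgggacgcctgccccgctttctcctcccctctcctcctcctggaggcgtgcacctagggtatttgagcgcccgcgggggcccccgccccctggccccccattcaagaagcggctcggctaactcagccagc
Adamts4: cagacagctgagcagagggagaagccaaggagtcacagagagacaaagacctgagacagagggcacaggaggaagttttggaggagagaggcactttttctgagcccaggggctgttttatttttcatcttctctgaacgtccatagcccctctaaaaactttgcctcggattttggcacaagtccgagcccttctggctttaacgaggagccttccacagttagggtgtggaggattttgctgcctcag
Adamts12: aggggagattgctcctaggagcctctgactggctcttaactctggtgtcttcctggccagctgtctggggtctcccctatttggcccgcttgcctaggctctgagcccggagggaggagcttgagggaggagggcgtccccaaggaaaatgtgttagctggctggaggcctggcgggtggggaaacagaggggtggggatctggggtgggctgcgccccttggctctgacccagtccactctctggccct
Adamts1: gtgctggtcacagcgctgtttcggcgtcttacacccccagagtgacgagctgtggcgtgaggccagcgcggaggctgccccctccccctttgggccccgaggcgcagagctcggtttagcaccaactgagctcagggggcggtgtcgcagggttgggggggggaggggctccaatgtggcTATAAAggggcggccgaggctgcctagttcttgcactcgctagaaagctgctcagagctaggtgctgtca

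The motifs, searched on both strands, were NF-κB (GGANTTTCC), AP-1 (TGANTCA), CRE (TGACGTCA), RUNX (TGTGGT), TEAD (GGAATG), ISRE (TTCNNTTTC), a hypoxia element (ACGTG) and the TATA box, spelled TATAAA. Among the 4 windows printed, only that of Adamts1, chosen in part for it, held a match, a TATAAA that ends 65 bases before the start. In the other 3 windows of the 7, those of Adamts7 and Adamts10 held TATAAA on the minus strand and that of Adamts6 held none of the motifs. TATAAA was present in 13.1% of 27457 RefSeq windows of the same length, NF-κB in 1.06%, AP-1 in 6.36%, CRE in 1.70%, RUNX in 14.1%, TEAD in 11.8%, ISRE in 7.99% and the hypoxia element in 16.9%. A match to these letters is no evidence of a site, and the lack of a match says only that the letters are not in this window. The windows differed in base composition, with 71.6% G or C and 21 CpG in that of Adamts9, 51.2% and 4 CpG in that of Adamts4, 63.6% and 5 CpG in that of Adamts12, and 65.2% and 15 CpG in that of Adamts1.

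The enzymes known to cut aggrecan or versican, the large hyaluronan-binding proteoglycans, were examined as a group. These are Adamts1, Adamts4, Adamts5, Adamts8, Adamts9 and Adamts15, of which 4 rose, 1 fell and 1 did not pass. The background was 65.9% of all genes tested, 33.2% higher and 32.8% lower, so this count alone sets the group little apart. Adamts15, which cuts versican, changed most of all 10 members. It was at 16.7, 13.4 and 13.8 CPM in Vector replicates 1, 2 and 3, and at 180.4, 173 and 199.8 CPM in replicates 1, 2 and 3 labelled FTO. The lowest library labelled FTO thus lay far above the highest Vector library. The fold change was 12.6 (95% confidence interval 11.2 to 14.2), a log2FC of 3.66 ± 0.0805 (SE, adjusted p = 3.99e-15).

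Adamts9, a versican-cutting enzyme that also acts at the base of cilia, was at 29.9, 34.55 and 32.3 CPM in the Vector libraries and at 119.9, 114 and 136 CPM in those labelled FTO. The groups lay well apart, with a log2FC of 1.94 ± 0.0743 (SE, adjusted p = 3.48e-12). Adamts4, the enzyme named aggrecanase-1, was at 9.29, 8.99 and 9.90 CPM in Vector and at 25.7, 27.8 and 27.5 CPM in the libraries labelled FTO. It rose 2.87-fold (2.52 to 3.28), with a log2FC of 1.52 ± 0.0896 (SE, adjusted p = 6.69e-10). In the RefSeq annotation 5 of the 10 members overlap other annotated genes. The use of strand in counting is not given in the sources used here, so reads of overlapping genes cannot be told apart.

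Adamts5, aggrecanase-2 and the main aggrecan-degrading enzyme of mouse cartilage, rose less. Its level was 103, 106 and 107 CPM in Vector and 165, 150.4 and 189 CPM in the libraries labelled FTO, with the wider spread in the latter. The log2FC was 0.68 ± 0.0675 (SE, adjusted p = 3.40e-07). Adamts1, which cuts versican and aggrecan and restrains the growth of blood vessels, went the other way. It was at 322, 331 and 325 CPM in Vector and at 233, 223 and 235 CPM in the libraries labelled FTO, a log2FC of -0.50 ± 0.0406 (SE, adjusted p = 3.38e-08). Adamts8, a weaker aggrecanase that also restrains vessel growth, was at 18.9, 21.5 and 21.95 CPM in Vector and at 27.2, 22.05 and 19.0 CPM in the libraries labelled FTO. Its groups overlapped, and its log2 fold change of 0.12 had a 95% confidence interval of -0.13 to 0.37 (adjusted p = 0.367). Without FTO replicate 3 it was 0.24 with an adjusted p-value of 0.0440, and without FTO replicate 1 it was -0.03 with an adjusted p-value of 0.812, so neither a call nor a direction is given for Adamts8.

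The enzymes known to cut COMP, a thrombospondin of cartilage and vessel walls, moved in opposite directions. Adamts7, which is studied in the vessel wall, was at 84.1, 86.3 and 82.55 CPM in Vector and at 163, 152 and 168 CPM in the libraries labelled FTO. It rose 1.91-fold (1.78 to 2.06), with a log2FC of 0.94 ± 0.0498 (SE, adjusted p = 1.92e-10). Adamts12, its closest relative in the family, was at 85.4, 82.5 and 83.0 CPM in Vector and at 32.6, 28.2 and 39.8 CPM in the libraries labelled FTO. It fell 2.47-fold (2.17 to 2.82), with a log2FC of -1.31 ± 0.0889 (SE, adjusted p = 3.97e-09).

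Both members linked to fibrillin microfibrils, Adamts6 and Adamts10, fell. Adamts10, which binds fibrillin-1 and is mutated in a form of Weill-Marchesani syndrome, was at 152.5, 141 and 146 CPM in Vector and at 124, 114 and 129.6 CPM in the libraries labelled FTO. The gap between the groups was small, with a log2FC of -0.26 ± 0.0535 (SE, adjusted p = 5.89e-04). Adamts6, which is needed for normal heart development in mice, was at 31.9, 32.5 and 32.9 CPM in Vector and at 17.96, 13.2 and 22.8 CPM in the libraries labelled FTO. Its log2FC was -0.83 ± 0.132 (SE, adjusted p = 5.29e-05). The coefficient of variation of Adamts6 was 1.54% in Vector and 26.7% in the libraries labelled FTO, and its log2FC was -1.05 without FTO replicate 3.

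That wider spread in the libraries labelled FTO was shared by other members. The median coefficient of variation over the 10 genes was 3.07% in Vector and 8.46% in the libraries labelled FTO, beside 4.44% and 5.94% over the 10042 genes with a mean of at least 100 counts. FTO replicate 3 was the highest of its group in 8 of the 10 genes and FTO replicate 2 the lowest in 8 of the 10. Over all genes tested these shares were 35.3% for the highest and 35.9% for the lowest. Members of 1 library are not independent, so these counts describe the libraries only.

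Ratios of counts within a library do not depend on scaling and show the change in make-up directly. In the RefSeq table Adamts1 and Adamts5 are neighbours with 0 genes annotated between them. Adamts5 gave 0.319, 0.320 and 0.329 counts per Adamts1 count in Vector and 0.710, 0.674 and 0.804 in the libraries labelled FTO, a 2.25-fold change of the ratio. Adamts15 and Adamts8 are also neighbours, with 1 gene annotated between them, which is not protein-coding. In the list of overlaps, 1 long non-coding RNA gene overlaps Adamts8. Adamts15 gave 0.884, 0.625 and 0.628 counts per Adamts8 count in Vector and 6.63, 7.84 and 10.5 in the libraries labelled FTO, an 11.6-fold change. Adamts7 gave 1.01 ± 0.0331 counts per Adamts12 count in Vector and 4.87 ± 0.596 in the libraries labelled FTO, and Adamts10 gave 4.52 ± 0.230 and 7.06 ± 1.47 counts per Adamts6 count (SD, n = 3 each). The ratio of Adamts9 to Adamts1 counts changed 5.401-fold and that of Adamts4 to Adamts5 counts 1.80-fold. In all 6 pairs computed, which were chosen after the values were seen, the ratios of the groups lay apart and the exact permutation p was 0.10, the smallest possible.

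**Figure D2:**
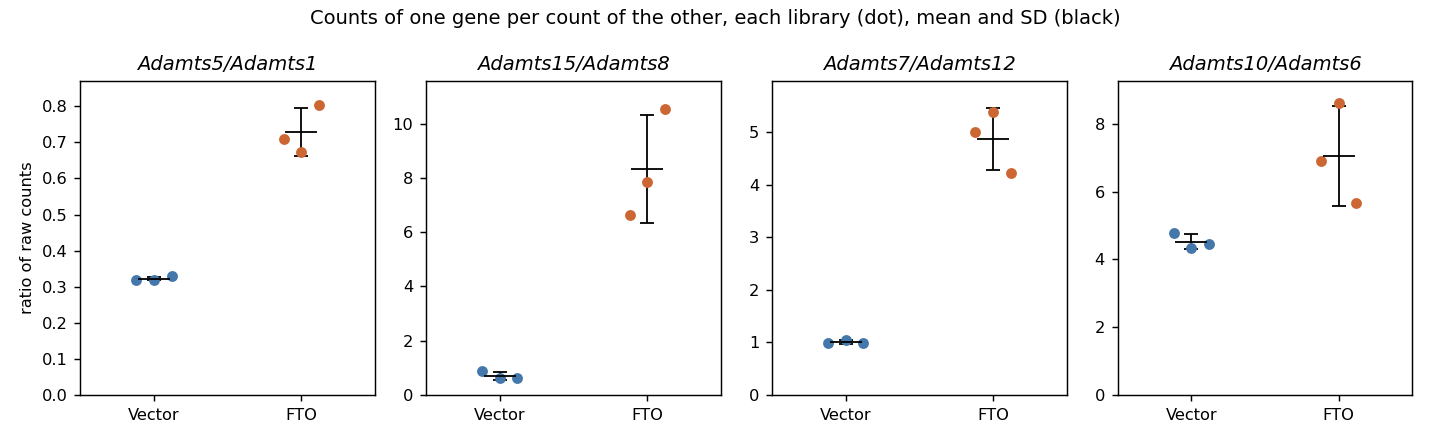
Ratio of raw counts of a pair of ADAMTS genes in each library (vertical axes from 0), for the 3 Vector libraries (blue) and the 3 libraries labelled FTO (orange), with the group mean and SD in black. In all 4 pairs plotted the ratio is higher in each library labelled FTO, from 4.52 to 7.06 on average for Adamts10/Adamts6 and from 0.712 to 8.33 for Adamts15/Adamts8. The pairs were chosen after the values were seen, and the first gene of each has the higher log2 fold change, so the shared direction follows from the choice.

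For each member that passed with a log2 fold change of at least 1 in either direction, the 3 genes with the most similar pattern were sought among 10032 other genes with a mean of at least 100 counts. Likeness was the root mean square difference of log2(CPM + 0.01), centred on each gene's own mean, over the 6 libraries. For Adamts15 these were Birc3 (0.0606), RGD1563091 (0.0783) and Aldh1l1 (0.0880). For Adamts9 they were Tmem2 (0.0426), Stap2 (0.0535) and Slc1a3 (0.0552), and for Adamts4 they were Cflar (0.0510), Gja5 (0.0514) and Nod1 (0.0532). For Adamts12 they were Slc38a4 (0.0285), Adam12 (0.0380) and Gpsm1 (0.0658). With 6 libraries in 2 groups, such likeness mostly restates a similar fold change.

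The rest of the family was compared in the same fit, in which 65.9% of all genes tested passed, 33.2% higher and 32.8% lower. The procollagen N-proteinases, which trim fibrillar procollagens, were Adamts2, Adamts3 and Adamts14, of which 1 rose and 2 fell. Adamts2 was at 402, 384 and 381 CPM in Vector and at 152, 131 and 149 CPM in the libraries labelled FTO, a log2FC of -1.43 ± 0.0533 (SE, adjusted p = 2.47e-12). Adamts14 fell by 0.67 and Adamts3 rose by 1.23 on the log2 scale. Adamts3 was at 5.68, 5.89 and 10.8 CPM in the libraries labelled FTO, so replicate 3 stood above the other two. Of 6 other ADAMTS proteases, 4 had enough counts to be tested. Adamts19 (2.06) and Adamts16 (1.30) rose and Adamts13 (-1.77), the protease of von Willebrand factor, fell, with means over the libraries of only 9.67 to 17.8 counts, while Adamts20 was at -0.19 with an adjusted p-value of 0.458. The call of Adamts16 was lost with DESeq2, without Vector replicate 2 or without FTO replicate 1, at adjusted p-values of 0.0544, 0.0642 and 0.0766. Adamts18 had 0 counts in 5 of the 6 libraries.

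The ADAMTS-like proteins share the ancillary domains but have no protease domain. Of 7 listed, 5 were tested, of which 1 rose and 4 fell, beside 65.9% of all genes tested that passed. The median log2 fold change was -0.42, beside 0.00 over all genes. Adamtsl3 was at 100.2, 97.8 and 109 CPM in Vector and at 17.3, 17.1 and 18.2 CPM in the libraries labelled FTO, a log2FC of -2.54 (adjusted p = 2.91e-14). Adamtsl2, which binds latent TGF-β binding protein and fibrillin, changed by -2.24, and Adamtsl1 by 1.32. Adamtsl4 and Adamtsl5 fell by 0.33 and 0.42 on the log2 scale.

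**Figure D3:**
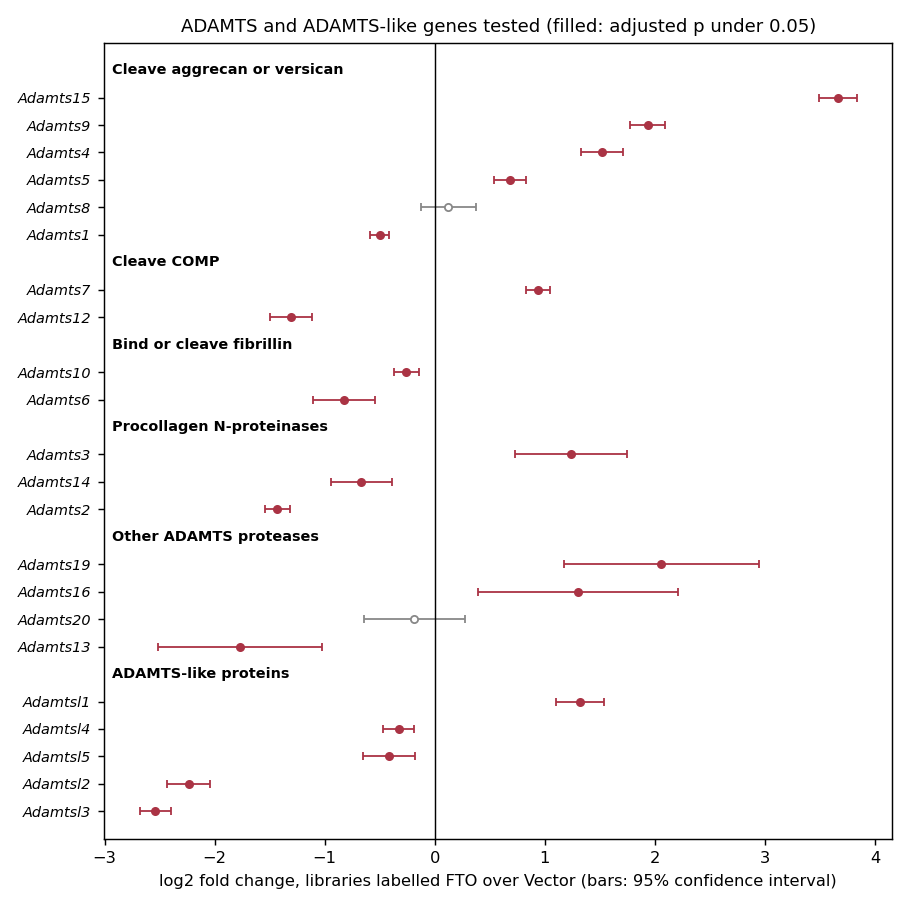
Log2FC, FTO over Vector (horizontal axis), with its 95% confidence interval for the ADAMTS and ADAMTS-like genes tested, grouped by role. Filled red points passed an adjusted p-value of 0.05 and open grey points, Adamts8 and Adamts20, did not. Values run from -2.54 for Adamtsl3 to 3.66 for Adamts15.

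Genes for known substrates were then described. Of 19 listed, 16 were tested and 15 passed, 7 higher and 8 lower, beside 65.9% of all genes tested (33.2% higher, 32.8% lower). The gene that did not pass was Fn1 (fibronectin), at -0.06 with all libraries and -0.10 (adjusted p = 0.0105) without FTO replicate 3. The proteoglycans cut by these enzymes split. Acan (aggrecan) fell from 82.8 ± 1.89 to 0.428 ± 0.0970 CPM (SD, n = 3 each). Vcan (versican) was at 915.5, 947 and 945 CPM in Vector and at 1971, 1951 and 2026 CPM in the libraries labelled FTO, a log2FC of 1.08 ± 0.0378 (SE, adjusted p = 1.05e-12). Bcan and Ncan, the aggrecan relatives of brain, had 0 counts in each library. Dcn, also a listed proteoglycan, rose from 47.0 ± 1.57 to 5611 ± 221 CPM (SD, n = 3 each), whereas Bgn fell by 0.45 on the log2 scale. Comp, the substrate of Adamts7 and Adamts12, was low in both groups, at 1.02 ± 0.0631 and 3.90 ± 0.724 CPM (SD, n = 3 each), a log2 fold change of 1.93. Among the thrombospondins, Thbs2 rose by 3.97 and Thbs1 fell by 1.72 on the log2 scale. Of the fibrillin genes, Fbn1 was at 2423 ± 70.2 and 1107 ± 131 CPM (SD, n = 3 each), a log2 fold change of -1.13, and Fbn2 changed by -0.69, in the direction of Adamts6 and Adamts10. Ltbp1, a latent TGF-β binding protein, changed by 0.81. Reln (1.22) passed with all libraries but not without Vector replicate 2, Vector replicate 3 or FTO replicate 3, at adjusted p-values of 0.0513, 0.106 and 0.0996.

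The inhibitors, clearance receptors and cofactors also moved both ways, 5 higher, 3 lower and Lrp1 not past the threshold among 9 tested of 11 listed. This stands beside 65.9% of all genes tested that passed. Timp3, the inhibitor of several ADAMTS enzymes, was at 101, 104 and 103 CPM in Vector and at 52.8, 46.8 and 53.1 CPM in the libraries labelled FTO. That is a log2FC of -1.01 ± 0.0572 (SE, adjusted p = 4.15e-10). Timp1, which mainly blocks matrix metalloproteinases, changed by 3.00 and Timp2 by 0.74. Lrp1, the endocytic receptor that clears Adamts4 and Adamts5 proteins, was at 1637 ± 68.1 and 1639 ± 277 CPM (SD, n = 3 each), with a 95% confidence interval of the log2 fold change from -0.18 to 0.18. Without FTO replicate 3 its value was -0.14 with an adjusted p-value of 0.0116. Sdc4, a cell-surface proteoglycan linked to the activation of Adamts5, changed by 3.19, Fbln1, a cofactor of Adamts1, by 1.07 and Fbln2 by -2.00.

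Of 7 genes for activation and secretion, 2 rose, 3 fell and 2 did not pass, beside 65.9% of all genes tested that passed. Pcsk5, a convertase of the furin family, rose from 15.5 ± 0.501 to 97.6 ± 10.97 CPM and Pcsk6 fell from 78.8 ± 3.90 to 34.7 ± 0.784 CPM (SD, n = 3 each). Furin was at 229 and 245 CPM, with an adjusted p-value of 0.0573 that ran under 0.05 with library size alone (0.0392), limma-voom (0.0483) or without FTO replicate 2 (0.0259). Pofut2, the enzyme that adds fucose to thrombospondin repeats so that they can be secreted, fell by 0.45 on the log2 scale.

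Versican is held in the matrix by hyaluronan. Of 7 genes for hyaluronan synthesis and binding, 4 rose, 0 fell and 3 did not pass, a smaller share called than the 65.9% of all genes tested. The median log2 fold change was 1.23, beside 0.00 over all genes. Has2, the main hyaluronan synthase of the developing heart, was at 4.39, 4.63 and 4.78 CPM in Vector and at 21.0, 18.5 and 19.5 CPM in the libraries labelled FTO, a log2 fold change of 2.09. Tnfaip6, which remodels hyaluronan and binds these aggregates, changed by 2.91 and the receptor Cd44 by 1.23.

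**Figure D4:**
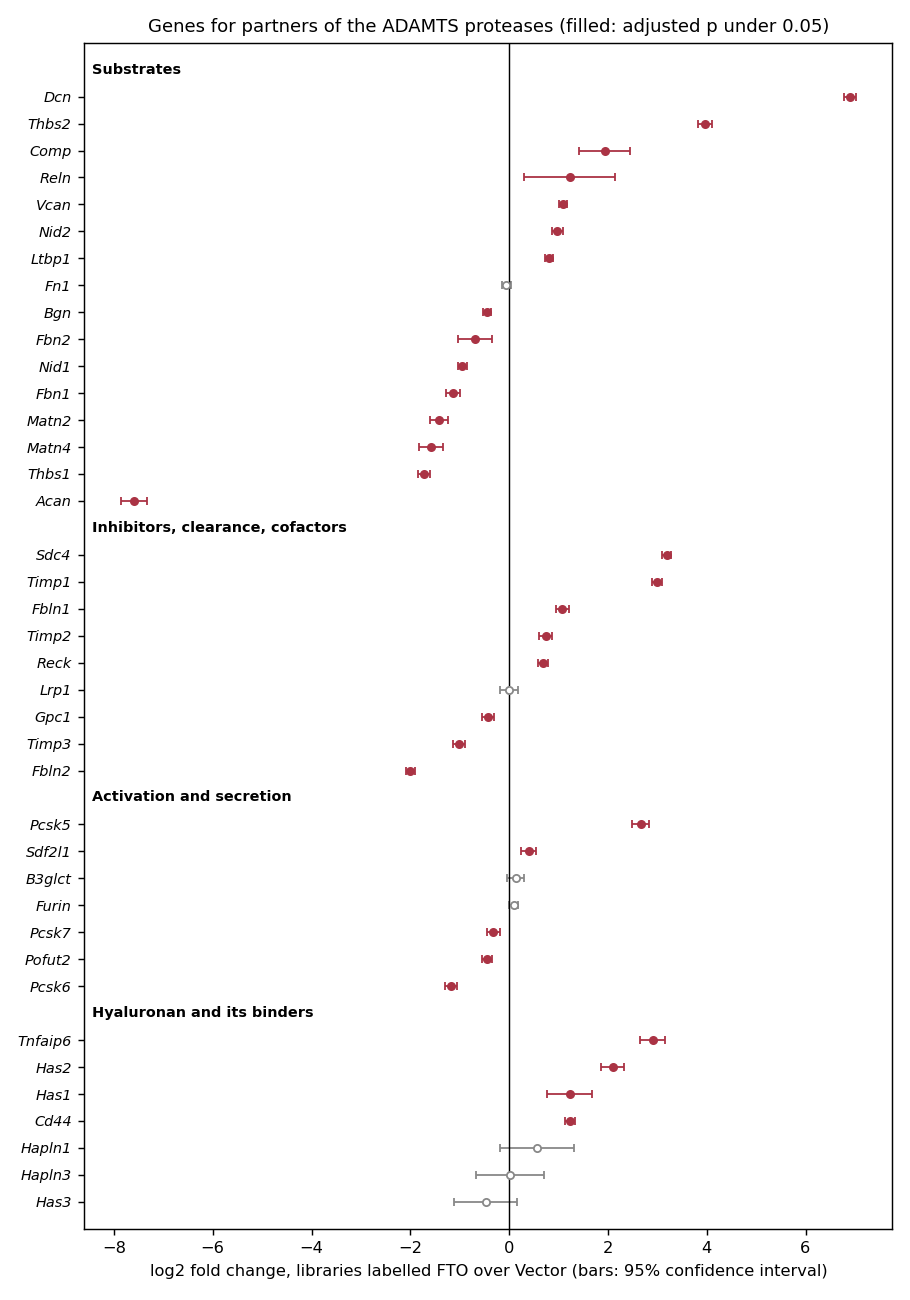
Log2FC, FTO over Vector (horizontal axis), with its 95% confidence interval for tested genes of substrates, inhibitors and cofactors, activation and secretion, and hyaluronan. Filled red points passed an adjusted p-value of 0.05 and open grey points did not. Acan (-7.60) and Dcn (6.90) lie at the ends, and Timp3 (-1.01) and Timp1 (3.00) on opposite sides of 0.

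Cytokines and factors known to raise or lower these proteases in cartilage and fibroblasts were last. Of 23 listed, 21 were tested and all 21 passed, 11 higher and 10 lower, beside 65.9% of all genes tested (33.2% higher, 32.8% lower). The median log2 fold change was 0.31, beside 0.00 over all genes. Those that rose included cytokines. Il1b was at 0.732, 0.470 and 0.0693 CPM in Vector and at 35.6, 39.5 and 34.9 CPM in the libraries labelled FTO. Il1a had at most 1 count in each Vector library and was at 30.6, 29.9 and 29.2 CPM in the libraries labelled FTO. Il1rn, the antagonist of their receptor, was at 15.7 and 146 CPM on average, a log2 fold change of 3.22. Il1r1, that receptor, was at 349 ± 5.00 and 864 ± 82.5 CPM, and Tnfaip3, a feedback inhibitor of NF-κB, at 8.43 ± 0.453 and 96.0 ± 5.11 CPM (SD, n = 3 each). The AP-1 genes Jun (-2.03) and Fos (-2.10), the cartilage factor Sox9 (-3.38) and Runx1 (-1.04) and Runx2 (-0.58) fell. Tgfb3 (-4.69), Tgfb2 (-1.88) and Tgfb1 (-0.49), the TGF-β ligands, fell as well, as did Ctgf (-3.52), a matrix-associated growth factor, and the cytokine Osm (-2.16). Tnf had 0 counts in each library, which allows up to 0.168 to 0.227 CPM. The directions of the lists are given as counts, with medians for some lists and values of single genes. No link from these genes to the proteases was tested.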

How the data were processed

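The values deposited by the authors are raw counts, whole numbers by gene symbol in 1 file for each of 6 libraries. Per the labels, total RNA was extracted with a phenol reagent and libraries were made with a NEBNext Ultra kit, and the submitters' processing notes name Trimmomatic and the build rn6. Aligner, counting program, annotation and strandedness are not given in the sources used here. RefSeq symbols and sequences are of GRCr8, so only neighbours, overlaps and promoter windows were taken from it, and all 10 symbols matched.

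Genes were kept with filterByExpr of edgeR 4.0.16 (minimum count 10) in R 4.3.3, and libraries were scaled by TMM, with factors from 0.995 to 1.005. Vector and FTO groups, taken from the genotype labels, were compared with glmQLFit and glmQLFTest (two-sided, no covariate), adjusted by Benjamini-Hochberg over 12941 genes. The SE was derived from the estimate and the square root of its F value. Ratios and sums were compared by an exact permutation test over libraries. No source names molecular identifiers, so the floor covers counting error only and intervals add the spread between replicates. The procedure was tested on simulated counts in which few genes changed, as many up as down. That setting does not cover data such as these, where 65.9% of all genes tested passed. Within-group pairs of libraries differed by more than sampling noise (chi-square per degree of freedom 1.56 to 8.02).

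The members and gene lists were chosen with earlier results of these data known. Their counts and medians beside those of all genes are therefore description only. Named are Fto, the 10 members, genes of the lists, and for each member past the adjusted threshold with a log2 fold change of at least 1 in either direction the 3 genes nearest in pattern. Of the listed genes, Sox4 and Thsd4 were not analysed here. Alternatives were DESeq2 1.42.0, limma-voom (limma 3.58.1), other scalings, other filters on low counts, the replicate number as a block and leaving out each library. Protein sequences were not used here, and the values of 1 gene are not reported here.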

Additional observations from a re-analysis of the deposited data

How the results depend on the processing

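The number of members past the adjusted threshold was 9 in 12 of the 13 alternatives and 10 without FTO replicate 3, where Adamts8 passed too (0.24). Their split, 5 higher and 4 lower, was otherwise the same, and 6 were higher without FTO replicate 3. At the threshold of the study 4 members passed, and 5 without FTO replicate 3. The numbers of genes past the adjusted threshold over the whole table ran from 7795 with DESeq2 to 9009 with no filter on low counts. Among the members, the calls and signs of all but Adamts8 held under all 13 alternatives, with log2 fold changes of 3.59 to 3.76 for Adamts15 and -1.46 to -1.20 for Adamts12. Adamts8 changed sign without FTO replicate 1 (-0.0320).

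Among other listed genes, signs changed only where no call was made with all libraries. Hapln3 was at 0.01 and moved to -0.00211 with DESeq2, -0.0164 with limma-voom, -0.0104 with the replicate block and -0.166 to 0.195 without single libraries. Lrp1 was at 0.00 and moved to -0.00569 with limma-voom, -0.0104 with the replicate block and -0.141 to 0.107 without single libraries. Adamts20 ran from -0.458 to 0.0247 without single libraries. The causes were not tested. Deviations of same-numbered libraries correlated at -0.00213, -0.0898 and 0.0499, so no shared deviation by replicate number was seen. This cannot exclude that same-numbered libraries came from the same animals or cultures. With the replicate block 8399 genes and 9 members passed. Depth limits genes near the floor, such as Adamts16 and Adamts19.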
